A study of Mus musculus with 384 samples.

Results

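The full cyclic AMP response element is the palindrome TGACGTCA, and 687 of 50000 accessible windows from a mouse breast tumor held it. Members were chosen by sequence alone: a 500-bp window belonged if it contained these 8 letters, which read the same on both strands. Of the 687 windows, 451 had their centre within 1 kb of an annotated transcription start site (near windows) and the rest lay farther away (far windows). The list was divided in the same way into 13310 near and 36690 far windows. Members just inside the 1-kb limit reached 990 bp from a start site and those just outside began at 1001 bp, with 12 members at 800 to 1000 bp and 4 at 1000 to 1200 bp.

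The windows came from 1 tumor of the MMTV-PyMT mouse, in which a mammary tumor virus promoter drives polyoma middle T antigen in mammary epithelium. Cells were fixed, stained for EpCAM (an epithelial adhesion protein) and CD45 (a leukocyte surface phosphatase), and sorted singly into 4 plates of 96 wells for Pi-ATAC, in which a transposase marks open chromatin in cells that also carry a protein stain. All wells formed 1 group with no stain result per well, and 1 list of windows was made from the aggregated cells, so epithelial cells and leukocytes could not be set against each other. There were no replicates and the list held no score or read count, so no test was made and the depth of each window is unknown. Shares are given with exact binomial (Clopper-Pearson) 95% intervals, which cover counting error only.

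The element is bound by basic leucine zipper factors of the CREB and ATF families, CREB1, ATF1 and CREM among them. When cyclic AMP rises it releases the catalytic subunits of protein kinase A from their regulatory subunits, and the kinase phosphorylates CREB on a serine that recruits the coactivators CBP and p300, while dephosphorylated CRTC proteins join the complex as further coactivators. The centre of the element is a CpG, and methylation of that CpG is known to weaken CREB binding.

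Sequences are shown first for listed genes that had an element window within 1 kb. These are genes of the cyclic AMP pathway, of stress responses, of the clock and of AP-1. The element is the same in all because members were chosen by it, and the sequences let a reader see its surroundings. Each is the plus strand of mm9, 5′ to 3′, with the element in capitals and 10 bases on either side in lower case. A match is a description of letters and not a binding site.

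Sik1, chr17:31992971-31992998: ccgcgggcggTGACGTCAggggcccggc
Prkar1a, chr11:109512204-109512231: cgaggcgcatTGACGTCAgcagccgaac
Pde7a, chr3:19211403-19211430: gccgccaccgTGACGTCAcgacgccgcg
Nr4a2, chr2:56967479-56967506: atttccgaccTGACGTCAcgactggggc
Gem, chr4:11631512-11631539: gcgggagcgcTGACGTCAcggaaaagcc
Ccna2, chr3:36470956-36470983: ccggagtccgTGACGTCAccagaagcgc
Ldha, chr7:54101152-54101179: gctcccactcTGACGTCAgcgcggagct
Fn1, chr1:71699892-71699919: agagtccgggTGACGTCAcggggtacgg
Ppp1r15a, chr7:52781633-52781660: ggcgctgtgcTGACGTCAccggagaggc
Hlf, chr11:90252223-90252250: ctgacaagagTGACGTCAgggcccgcac
Jund, chr8:73222624-73222651: cccacccccaTGACGTCAacccacaatg

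Paired elements are shown next, as the 6 closest pairs in single windows, with both elements in capitals and 2 bases at either end. Atp6v0c, Ralgapa1, Braf and Lekr1 carried theirs at a start site, and the P2rx7 and Prr7 pairs lay far from one. The spacing from start to start ran from 11 bp at Atp6v0c to 18 bp at Braf.

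Atp6v0c, chr17:24306052-24306074: aaTGACGTCAgagTGACGTCAcg
P2rx7, chr5:123087249-123087273: ggTGACGTCAtttcgTGACGTCAtc
Lekr1, chr3:65470138-65470165: tgTGACGTCAccgcgcctTGACGTCAgg
Ralgapa1, chr12:56922191-56922218: tcTGACGTCAagtgctcgTGACGTCAtg
Prr7, chr13:55572995-55573022: cgTGACGTCAtccctgggTGACGTCAcc
Braf, chr6:39675534-39675563: cgTGACGTCAcctgggtgcgTGACGTCAtc

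The element lay mostly in windows at promoters. Near windows held it in 3.39% (3.09 to 3.71%) and far windows in 0.643% (0.564 to 0.730%), against 1.37% of all windows. The near share was 5.27 times the far share (4.51 to 6.16 by a normal approximation on the log scale). Put the other way round, 65.7% (62.0 to 69.2%) of element windows were near a start site, where 26.6% of all windows and 4.15% of genome tiles were. Tiles are consecutive 500-bp pieces of chromosomes 1 to 19 and X without unknown bases, and 0.273% of them held the element.

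Part of that gap was present in the genome before any window was called. Tiles near a start site held the element 2.43 times as often as tiles farther away (0.626% against 0.258%). Without weighting for CpG, near windows held it 5.42 times as often as near tiles, and far windows 2.49 times as often as far tiles. The near share exceeded the far share on 20 of 20 chromosomes, with near shares from 1.30% on X to 5.32% on chromosome 13. The margin was small on chromosome 19, at 1.32% near and 1.13% far.

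CpG content moved with these shares. Near windows with the element held a median of 39 CpG and those without it 31, while the far medians were 9 and 6. Within near windows the share holding the element climbed across CpG classes, from 0.622% at 0 to 4 CpG to 3.18% at 20 to 29 CpG and 5.28% at 40 or more. Far windows climbed too, from 0.228% to 1.68% and 3.49% (1.52 to 6.77%) in the same classes. With far windows weighted to the CpG mix of near windows, their share became 2.27% and the near to far ratio fell to 1.49. No interval was made for either value. The far shares at 20 to 29, 30 to 39 and 40 or more CpG rest on 12, 8 and 8 element windows. Overlapping windows of the gene Csf2ra, with 45 and 69 CpG, are among the last 8. Class by class the near to far ratio ran from 1.08 at 10 to 19 CpG to 2.73 at 0 to 4 CpG. The near and far intervals overlapped in all 6 classes. Against near tiles of the same class, near windows held the element 3.95 times as often at 0 to 4 CpG, where 4 windows held it. In the other classes they held it 1.66 to 2.21 times as often. Against far tiles of the same class, far windows ran from 0.294 times at 20 to 29 CpG to 2.90 times at 40 or more.

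**Figure D1:**
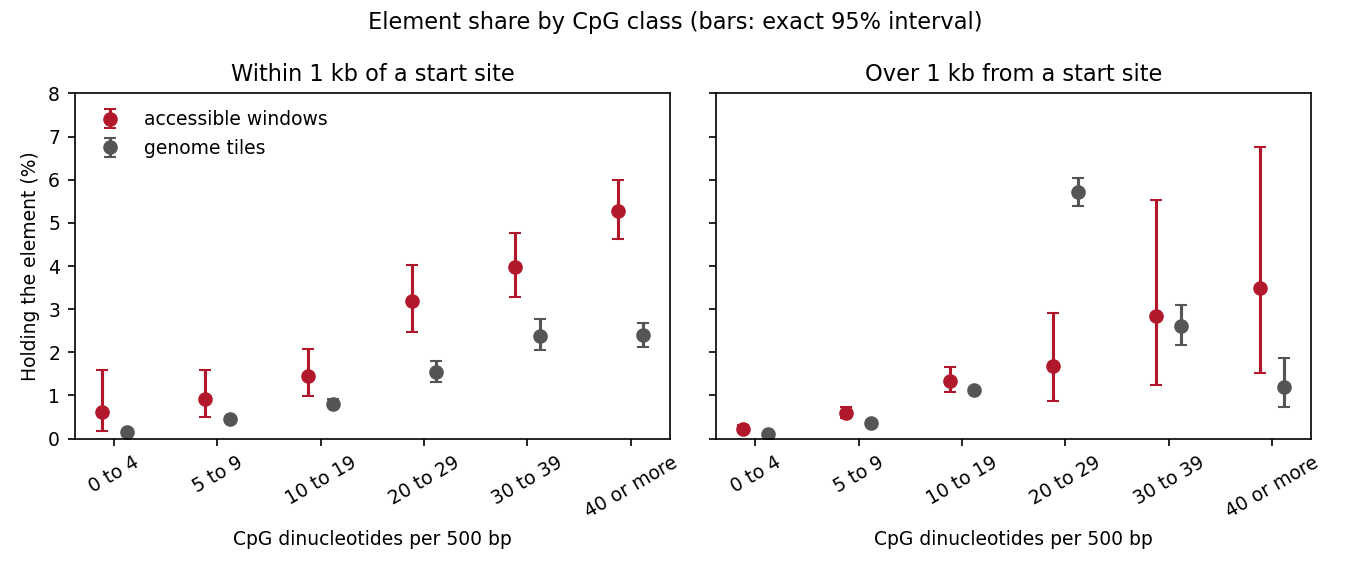
Share of accessible windows (red) and of genome tiles (grey) holding the element, in percent, by the number of CpG in 500 bp, on the left within 1 kb of a start site and on the right farther away. Whiskers are exact 95% intervals. The points of near windows lie above those of near tiles in every class, whereas far tiles with 20 to 29 CpG stand at 5.71%, above the far windows of that class at 1.68%.

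One class of far sequence stood apart in the opposite direction. Among far tiles with 20 to 29 CpG, 1175 of 20574 held the element (5.71%), and far windows of that class held it 0.294 times as often. Many of these elements sat in sequence that the genome repeats. Taking each element with 20 bases on either side, 13 of 11689 distinct 48-base sequences occurred 10 or more times, the most frequent of them 1055 times. Far elements in such repeated sequence lay in a window in 8 of 2373 cases (0.337%, 0.146 to 0.663%), and of the 10247 far elements with single-copy surroundings 2.28% (2.00 to 2.59%) did. In the 20 to 29 CpG class, where surroundings found 2 or more times were counted as repeated, a window held 0.348% of 2013 elements with repeated and 10.1% (5.48 to 16.6%) of those with single-copy surroundings. Low-quality alignments had been discarded before windows were called, and the part of mapping in these values was not tested. Counting elements with single-copy surroundings alone, near windows held the element 5.73 times as often as near tiles and far windows 3.04 times as often as far tiles. Neither ratio was weighted for CpG.

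Seen from the genome, 697 of 14297 full elements on the 20 chromosomes (4.88%, 4.53 to 5.24%) lay in a window. Distance from the start site graded this share. Of 606 elements within 100 bp of a start site, 50.5% (46.4 to 54.6%) lay in a window. The share was 33.8% at 100 to 250 bp, 17.5% at 250 to 500 bp and 10.1% at 500 to 1000 bp, and by 10 to 50 kb it was 1.48%. Each of the first 4 intervals lay apart from its neighbour except the last pair, which met at 12.7 to 23.2% and 7.07 to 13.8%. CpG content graded the near elements as well, from 4.17% in a window at 0 to 4 CpG to 67.0% (61.6 to 72.0%) at 40 or more. Of the 24 far elements with 40 or more CpG, 13 also lay in a window (54.2%, 32.8 to 74.5%). Elements lying close together count separately in all these shares.

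**Figure D2:**
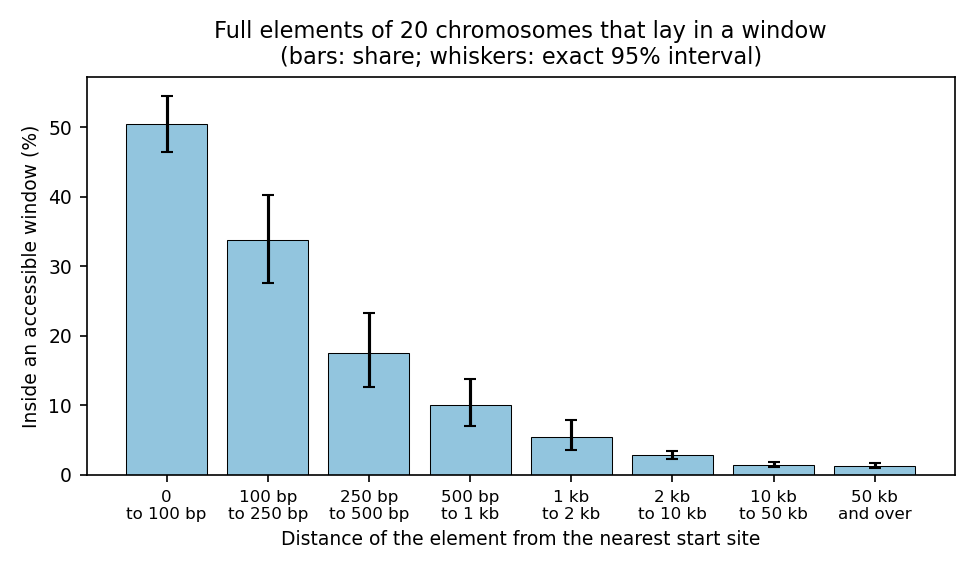
Bars give the percent of all full elements of the 20 chromosomes that lay inside an accessible window, by the distance of the element from the nearest start site, and whiskers are exact 95% intervals. The share falls from 50.5% within 100 bp to 1.31% beyond 50 kb.

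At promoters the element kept close to the start site, on the upstream side. In 75.6% of the 451 near members the element nearest to the start site lay upstream of it, in 53.9% within 100 bp upstream, and the median distance was 52 bp. Around the first start site of protein-coding genes, those with a window held 25.1 elements per 1000 genes in the 100 bp upstream and 1.11 per 100 bp at 500 to 1000 bp upstream. Genes without a window showed the same shape at a lower height, with 9.67 per 1000 genes against 0.473. Of all elements within 1 kb of these starts, the last 100 bp upstream held 37.4% in genes with a window and 39.5% in genes without one. The placement was thus shared by both sets of genes, and it was the number of elements that differed.

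**Figure D3:**
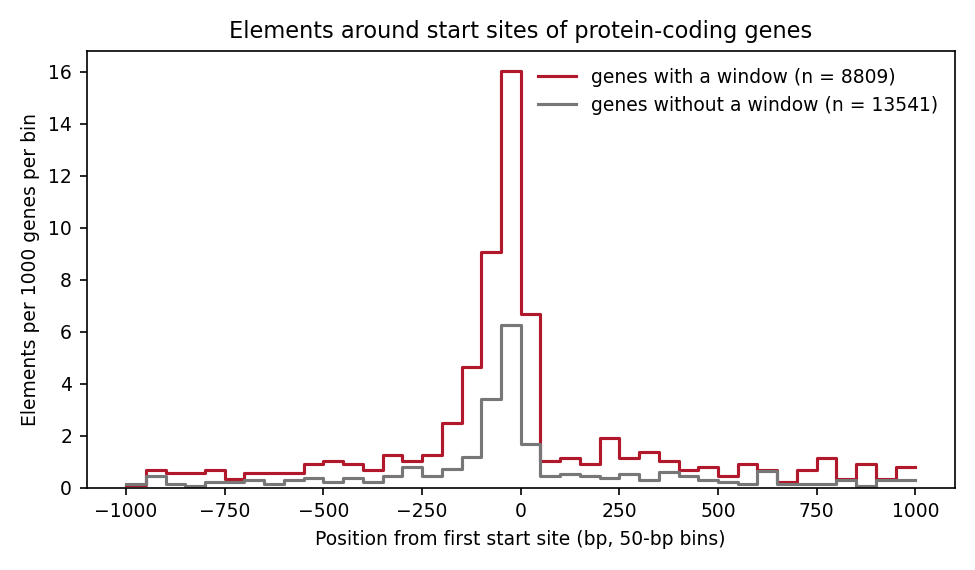
Full elements per 1000 protein-coding genes in 50-bp bins from 1000 bp upstream (negative) to 1000 bp downstream of the first start site, for 8809 genes with a window centred within 1 kb of that start (red) and 13541 genes without (grey). Both lines peak just upstream of the start, and the red peak is the taller.

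Genes with the element at their start more often had a window there. Searching 500 bp to either side of the first start site, 459 of 717 protein-coding genes with the element had a window (64.0%, 60.4 to 67.5%), against 38.6% (38.0 to 39.3%) of genes without it. The difference of 25.4 percentage points became 9.90 points when genes without the element were weighted to the CpG mix of genes with it. Intervals stayed apart in the 4 classes richest in CpG, where the shares with and without the element were 42.0% (31.1 to 53.5%) and 29.2% at 20 to 39 CpG, 70.5% and 58.5% at 40 to 59 CpG, 77.2% and 66.6% at 60 to 79, and 78.9% and 66.9% at 80 or more. Among CpG-poor starts with 10 to 19 CpG the order was reversed, at 2 of 47 genes with and 11.2% of genes without the element, although these intervals overlapped.

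In near windows the element gathered at the centre, where the summit of accessibility lies, and in far windows it did so less. The 472 occurrences in near windows lay a median of 81 bp from the centre (75 to 89 bp), or 32.4% of the way to the window's edge. Those in far windows lay 43.2% of the way (36.0 to 48.4%), where an even spread gives 49.2%. Within 50 bp of the centre lay 33.5% of near and 24.9% (19.6 to 30.8%) of far occurrences, against 20.5% of positions. The far interval includes that share of positions. Other words served as a scale. In near windows GCGCATGC, the word of NRF1, had a median of 80 bp and AGCCAAT, the CCAAT word of NFY, 85.5 bp, while TGACTCA, the AP-1 word that lacks the central CpG of the element, stood at 121.5 bp. In far windows AP-1 stood at 102.5 bp, 41.0% of the way to the edge and within the interval of the element. Occurrences in overlapping windows count once in each.

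**Figure D4:**
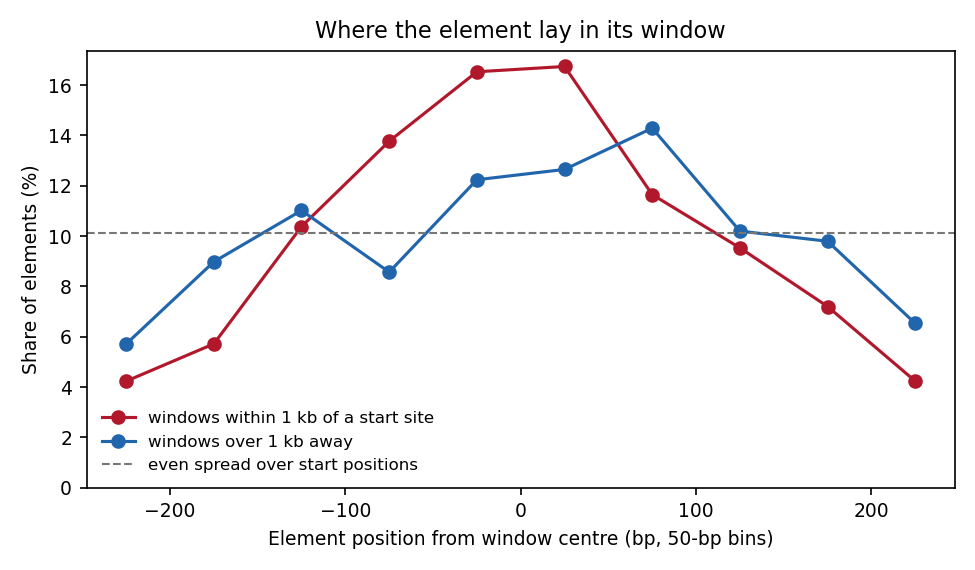
Percent of element occurrences by position from the window centre in 50-bp bins, for near (red) and far (blue) windows, with the level of an even spread dashed. The near line peaks in the bins beside the centre, and the far line is flatter.

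The CpG in the middle is not enough to describe the element, as 64 palindromes of 8 bases share it. The ratios that follow were not weighted for CpG. In classes of 5 or more CpG the near ratio of the element was 1.66 to 2.21, and the other palindromes were not recounted by class. Taking windows against tiles in the same distance group, the element ranked 3 of 64 in near windows, behind TCGCGCGA at 7.71 and CGTCGACG at 5.62, words that far fewer near windows held (74 and 31). In far windows it ranked 18 of 64, and every word above it but TTGCGCAA held more G and C. Among the 24 palindromes with 4 G or C, as in the element, it ranked 1 in near windows, where the next stood at 4.15 and the median at 1.793. It ranked 2 of 24 in far windows, where the highest stood at 2.58 and the median at 1.45. These ranks count copies in repeated sequence. With single-copy surroundings alone the far ratio of the element was 3.04, and the other words were not recounted in that way.

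**Figure D5:**
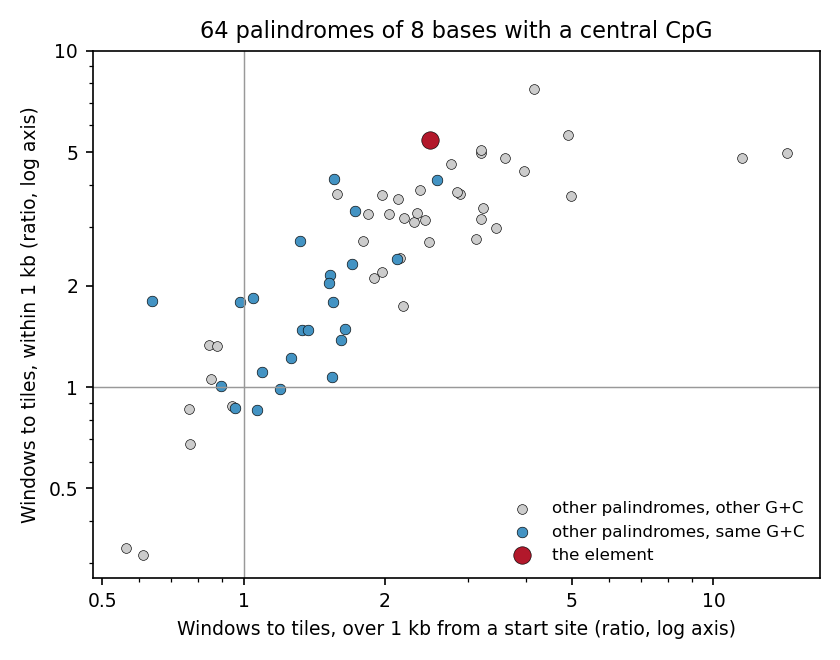
Each point is a palindrome of 8 bases with a central CpG, placed by the ratio of its share in windows to its share in tiles, over 1 kb from a start site on the horizontal axis and within 1 kb on the vertical axis (both logarithmic). The element is red, at 2.49 and 5.42, palindromes with as many G and C are blue, and the rest are grey. Ratios are not weighted for CpG.

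Single-base changes to the element separated along the central CpG. Each of the 12 variants was searched on both strands. Their ratios of windows to tiles were not weighted for CpG, and whether the split remains at the same CpG content was not tested. The 3 that lose the CpG had near ratios below 1, namely TGACCTCA at 0.822, TGACATCA at 0.730 and TGAAGTCA at 0.623. The 9 that keep it ran from 1.75 for TGACGACA to 6.36 for CGACGTCA, which gains a further CpG. TGACGCCA followed the element at 3.89 and TGACGTAA at 3.10. In far windows the element had the highest ratio of the 13 words at 2.49, with TGACGCCA at 2.22, and the variants without the CpG ran from 1.10 to 1.53. Near tiles hold the full element in 0.626% and far tiles in 0.258%, while the 3 variants without CpG each occur in over 2% of either.

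The base next to the element was most often C. Read outward from each end, 48.4% of the 910 flanking bases in near windows were C and 7.03% were A, against 34.2% and 13.9% at near elements in no window. In far windows C followed in 32.4% and A in 13.8%. Of near elements followed by C on both sides, GTGACGTCAC in full, 46.4% (39.8 to 53.0%) lay in a window. With C on 1 side the share was 36.6%, and with C on neither it was 22.6% (19.2 to 26.4%). CpG content moved with this order, and within CpG classes it flattened: at 40 or more CpG the shares for 0, 1 and 2 sides were 63.5%, 68.7% and 66.7%, and under 20 CpG they were 8.22%, 7.34% and 8.22%. At 20 to 39 CpG they were 48.4%, 48.7% and 59.7%, with overlapping intervals.

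Words of other factors were counted in the same windows, on both strands. In near windows at the same CpG mix, windows with the element held CCGGAAG, the ETS word, in 23.7% against 22.2% without it, and AGCCAAT in 13.3% against 11.9%. GGGCGG, the SP and KLF word, was held by 72.3% (67.9 to 76.4%) against 78.6%, but the direction turned on the CpG weighting, since unweighted it was held by 64.0% of near windows without the element. In far windows AGCCAAT was held by 10.2% (6.63 to 14.8%) with and 6.37% without the element, and TGACTCA by 14.4% (10.2 to 19.6%) and 15.6%. Near members had start sites on both strands within 1 kb in 20.0% (16.4 to 24.0%), against 15.9% of other near windows, without weighting for CpG. The 13 words were then compared at the same CpG mix. The share without the element lay outside the members' interval for GGGCGG and TTGCNNAA, the C/EBP word, in near windows and for AGCCAAT in far windows. For TTGCNNAA it was 11.46%, just below the members' 14.6% (11.5 to 18.2%). Unweighted it was 13.8%, inside that interval.

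Members near start sites reached few protein-coding genes. An element window within 1 kb was found for 475 of 22350 protein-coding genes, or 2.13%, while 43.5% had any window there. Genes of the cyclic AMP pathway were taken as lists from textbook knowledge. Of 40 genes known to be induced by cyclic AMP, 7 had an element window (17.5%, 7.34 to 32.8%) and 25 any window. Such genes are known in part because they carry the element, so this count is no independent evidence. Those 7 were Crem, Sik1, Nr4a2, Gem, Ccna2, Ldha and Fn1.

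Crem encodes a cyclic AMP responsive factor, and its internal promoter makes the repressor ICER. It held 2 elements in 1 window, the nearest 3 bp upstream of a start site, with 3 windows in all within 1 kb. Sik1, a kinase that phosphorylates CRTC coactivators, had its element 0.247 kb upstream. The element of Nr4a2, an orphan nuclear receptor induced early after stimulation, lay 43 bp upstream. Gem, a small GTPase that restrains calcium channels, had it 78 bp upstream, and Ccna2, the cyclin of S phase and G2, 83 bp upstream. The distance was 43 bp for Ldha, which turns pyruvate into lactate, and 0.131 kb for Fn1, the matrix protein fibronectin. All 7 elements thus lay upstream of the start.

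Factors and enzymes of the pathway itself were counted next. Of 18 CREB and ATF factor genes Crem alone had an element window, although 12 had some window within 1 kb, Creb1, Atf2 and Atf3 among them. Of 20 genes for coactivators, protein kinase A subunits and SIK kinases, Sik1 and Prkar1a had one and 14 had any window. Prkar1a, the regulatory subunit that holds protein kinase A inactive, had its element 17 bp upstream. Of 27 genes of cyclic AMP synthesis and breakdown, Pde7a, a phosphodiesterase, was the only one with an element window (94 bp upstream), and 13 had any window. These shares of 5.56%, 10.0% and 3.70% each lay above the 2.13% of all protein-coding genes, with intervals that include it. Any window was found for 66.7%, 70.0% and 48.2% of these genes, against 43.5% of all. Among genes with any window 4.89% had the element, and in these lists it was 1 of 12, 2 of 14 and 1 of 13.

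Stress, clock and AP-1 genes also gave shares whose intervals include 2.13%. Of 32 stress and unfolded protein genes, 28 had a window and 1 an element window, that of Ppp1r15a, which directs a phosphatase to the initiation factor eIF2α (8 bp upstream). Of 20 clock genes it was Hlf, a leucine zipper factor (5 bp upstream), and of 14 AP-1 and partner genes it was Jund (0.219 kb upstream). Fos, Junb, Nr4a1, Per1 and Dusp1 had 1 to 3 windows each within 1 kb, none of them with the full element. Per1 had a far member, in an intron with its centre 1516 bp from a start site. Marker lists of luminal cells, leukocytes, and fibroblasts with endothelium gave 0 of 16, 0 of 16 and 0 of 13 genes with an element window, where 6, 9 and 4 had any window. The intervals of these small lists reach up to 20.6%, 20.6% and 24.7%, and each includes 2.13%. Epcam and Ptprc, the genes of the 2 stained proteins, had no window within 1 kb.

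Gene families were set beside the 2.13% by name. Cytosolic ribosomal protein genes had an element window in 6 of 79 (7.60%, 2.84 to 15.8%), namely Rpl4, Rpl13, Rpl18, Rpl24, Rpl27a and Rps9. Genes named Zfp, mostly zinc finger proteins, had one in 17 cases (4.58%, 2.69 to 7.24%), and respiratory complex I in 3 of 42, Ndufa10, Ndufa11 and Ndufb2. Mitochondrial ribosomal proteins had 0 of 77 (up to 4.68%), translation initiation factors 0 of 57 (up to 6.27%) and aminoacyl-tRNA synthetases 0 of 34 (up to 10.3%), so that all 3 intervals include 2.13%. Any window was found for 72.7%, 71.9% and 91.2% of these genes. Solute carriers had 4 (1.19%, 0.325 to 3.02%), and olfactory receptors, with 18 of 1113 genes near any window, had 0. The other families counted were proteasome subunits with 2 of 52, heat shock and DnaJ chaperones with 3 of 73 gene records (Dnajc27, and Hspa14 under 2 records), RNA polymerase subunits with 0 of 26 and keratins with 0 of 51. The intervals of the ribosomal and Zfp families lay above 2.13%. Among genes with any window, 4.89% (4.47 to 5.34%) had the element, and these families stood at 11.3% (4.27 to 23%) and 7.94% (4.7 to 12.4%), with intervals that include 4.89%.

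Beyond the lists, genes were named by the number of elements near their starts. None had more than 2, and of the 27 that had 2 the 12 with an element nearest to a start site are named. Zfp473 and Vrk3 shared a pair from a start region common to both, as did Chpf, an enzyme of chondroitin synthesis, and Tmem198. Oxsr1, a kinase of the osmotic stress response, Map1lc3a, the autophagosome protein LC3A, and Nup214, a nuclear pore protein, had an element 13, 16 and 26 bp upstream and a further one nearby. Zfp593, Lekr1, Fbxo33, Rnf44 and A130010J15Rik completed the 12. Of 31 neighbouring pairs of elements no farther apart than a window's length, 12 were within 50 bp, start to start, and the median spacing was 64 bp. Most members held a single element, 95.3% of near and 96.6% of far ones.

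Far members lay in introns (46.6%), between genes (45.3%) and in exons (19 windows). Exons took 8.05% (4.92 to 12.3%) of them and 4.95% of other far windows. At 1 to 2 kb from a start site lay 10.2% (6.63 to 14.8%), against 7.19%. Both intervals include the share of other far windows. Their median distance was 13238 bp, against 18022 bp for other far windows. Peaks with several summits were more frequent among them, at 4.66% (2.35 to 8.19%) against 0.834%. In near windows such peaks made up 15.1% (11.9 to 18.7%) with the element and 11.3% without it. These shares were not weighted for CpG.

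Far windows with several elements, or with one at the very centre, are shown to complete the picture. The strand, build and capitals are as above, and P2rx7 and Prr7 were shown among the pairs.

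Csf2ra, chr19:61302634-61302661: ttgccggcggTGACGTCAtcgcttgccg
Csf2ra, chr19:61302231-61302258: cactgtgtgaTGACGTCAtccccggggt
Csf2ra, chr19:61303250-61303277: tggcatgtgaTGACGTCAtctgtcagtc
Gfod1, chr13:43364400-43364427: ggtcaaatcgTGACGTCActtgcccaca
AU040320, chr4:126524106-126524133: gtttctggaaTGACGTCActctgtggtg
1700019O17Rik, chr1:88331126-88331153: gacggccgggTGACGTCAgtccattgag
L1cam, chrX:71091741-71091768: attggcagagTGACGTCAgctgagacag
Fermt2, chr14:46159591-46159618: aagccggcagTGACGTCAcacatgcaaa
Snx14, chr9:88299098-88299125: gcaagcatggTGACGTCActggtgacac

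The gene of the GM-CSF receptor alpha chain, Csf2ra, stood out by number. A window in an exon 1781 bp from its start site held 3 elements and 69 CpG, and its neighbours at 2114 and 1188 bp held 2 each. The windows at 1781 and 2114 bp overlap and share an element, which is counted in both. A near window of the same gene held 2 more, the nearest 88 bp upstream of the start. The remaining far windows with 2 elements were an intronic one 35056 bp from the start of Gfod1, an intergenic one 6737 bp from that of P2rx7, an ATP-gated channel, an intronic one 3716 bp from AU040320 and an exonic one 7617 bp from Prr7. A further one had no start site within 50 kb. Next by nearness of the element to the centre came windows with a single element at 1700019O17Rik, L1cam (a neural adhesion protein), Fermt2 (kindlin-2, which activates integrins) and Snx14, where the element lay 5 to 9 bp from the centre. The named gene is the nearest start site, and whether the window acts on it was not tested.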

How the data were processed

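Single cells of 1 tumor were profiled by Pi-ATAC. According to the methods and the submitters' processing notes, adapters were trimmed, read pairs were mapped to mm9 with Bowtie2 2.1.0, duplicates were removed with Picard 1.79, and low-quality and mitochondrial reads were discarded. Cells were then aggregated, and summits were called with MACS2 (version not given in the sources used here), widened to 500 bp and ranked by q. The values deposited by the authors are the positions and names of the 50000 windows kept, with no score or count.

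Windows were read against the NCBIM37 (mm9) genome and the GENCODE vM1 annotation, on chromosomes 1 to 19 and X, and positions count from 1. A window was near if its centre lay within 1 kb of any annotated start site. Words were searched as exact letters on both strands. Shares were compared with those of 5111018 consecutive tiles of 500 bp without unknown bases, in classes of CpG count. The interval of a median came from binomial ranks. Python 3.11.15 with numpy 2.4.6, scipy 1.17.1 and matplotlib 3.10.9 was used. The search was tested on simulated data, where a share of 10% planted in 5000 sequences was recovered as 10%.

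Named genes are listed genes with an element window within 1 kb, up to 12 others by number of elements (ties by nearness of an element to a start site), and up to 12 far windows by number of elements and then by nearness to the centre, named by a start site within 50 kb. Closest pairs were added after their values had been seen, as was the count of repeated surroundings. Sequences are printed with 10 bases on either side in place of the 30 first intended, and none is printed from chromosome 18. RefSeq tables served for names alone, and 214 listed symbols were matched directly and 2 by an older symbol. The members and lists were chosen with earlier results of these data known, so no p-value is given. The alternatives changed the 1-kb limit, the start sites used, the part of the window searched, the handling of overlapping windows, and the chromosomes.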

Additional observations from a re-analysis of the deposited data

How the results depend on the processing

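Of the alternatives, 12 moved a value past its interval and the others did not, among them all 120 that left out 1 chromosome in turn. With near defined as within 500 bp, the near share was 3.9% and the share of element windows near a start site 61.4%. Within 2 kb the near share was 2.98%. With protein-coding start sites alone, 61.3% of element windows were near. Without chromosomes 7, 8, 9 and X the far share was 0.750%. Chromosomes 7, 8 and 9 had the most windows, at 4284, 4902 and 4424. Their far shares were 0.324%, 0.603% and 0.514%. Searching the central 200 bp gave 1.99% near, 0.308% far, a near to far ratio of 6.47 and 70.1% of element windows near. Among start sites without the element, 34.8% had a window within 500 bp and 42.1% within 2 kb. Counting elements with single-copy surroundings alone, chosen after seeing the data, the ratio of windows to tiles was 6.14 in place of 5.03. A stricter peak threshold was not run, because the list carries no score. No paired analysis was possible because all wells form 1 group and 1 pooled list. With the depth unknown, an element outside the 50000 windows cannot be told from one in closed chromatin, and cells of different types were pooled.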

Other observations

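Far windows rich in CpG were looked at after the values had been seen. Of the far members, 8 held 30 to 39 CpG and 8 held 40 or more, in windows outside annotated promoters. Among the latter were the window 7747 bp from the start of Mirlet7a-1 and that 22107 bp from Mir30d, each with 48 CpG, the start sites being those of the annotated microRNA hairpins. Others lay 3675 bp from Sema3b, a secreted semaphorin, with 40 CpG, and 8189 bp from 1700019O17Rik, with 43 CpG. Windows with 30 to 39 CpG included those 2280 bp from Rabepk and 6720 bp from Anp32e, both with 31 CpG.

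Chromosomes 19 and X had the lowest near shares. On X the element was in 8 of 615 near and 3 of 1984 far windows, and on chromosome 19 in 5 near and 10 of 885 far windows. These shares of 1.30% and 1.32% near compare with 5.32% on chromosome 13, where 26 of 489 near windows held the element. The far shares were 0.151% on X, the lowest, and 1.13% on chromosome 19, the highest. The difference between chromosomes was not tested.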
